A study of Homo sapiens with 16 samples.

Results

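Keratins are the intermediate filament proteins of epithelial cells, and their RNA was followed here with and without DDX4 in PC3, an established cell line from a human prostate cancer. The members were all genes whose symbol is KRT plus a number, with or without a closing A, B or C, and 55 of the 20356 genes counted met that rule. They comprised 28 type I keratins, 26 type II keratins and the keratin-like gene KRT222, with 27 on chromosome 12 and 28 on chromosome 17. RNA came from 4 groups of 4 libraries: control PC3 monolayer cells, DDX4-null PC3 monolayer cells, control PC3 xenograft tumors and DDX4-null PC3 xenograft tumors. A xenograft is a tumor that the human cells form in a host animal, so tumor RNA can also hold RNA of the host. The labels give neither the host, its site of injection, the number of null clones nor the way in which DDX4, an RNA helicase of germ cells, was removed. Nor do they tell whether replicate libraries stem from different cultures or tumor-bearing animals, and the p-values below therefore reflect only a spread among libraries that may be technical.

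Keratin filaments are built from pairs of 1 type I and 1 type II protein, and each epithelium is known for its own pairs. KRT8 with KRT18, often joined by KRT7 and KRT19, is the pair of simple epithelia such as the luminal layer of the prostate, while KRT5 with KRT14 is the pair of basal layers. KRT6A, KRT6B and KRT16 are known for wounded or rapidly dividing stratified epithelium. A large further group builds hair, nail and the sheaths around the hair root.

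Some keratins are near copies of each other, which bears on how their reads can be assigned. KRT81, KRT83 and KRT86 are type II hair keratins of chromosome 12, and their coding sequences were 93.6% identical between KRT81 and KRT86 and 93.4% between KRT81 and KRT83. Of all 75-base windows of the KRT81 transcript, 36.6% also occurred in another transcript (33.0% in KRT86), against 32.6% for KRT86 and 3.55% for KRT83. The lines below give 120 coding bases of each in GENCODE v29 (bases 301 to 420 of the coding sequence of KRT81 and KRT86, 316 to 435 of KRT83), with the 2 positions that differ among the 3 genes in capitals.
KRT81: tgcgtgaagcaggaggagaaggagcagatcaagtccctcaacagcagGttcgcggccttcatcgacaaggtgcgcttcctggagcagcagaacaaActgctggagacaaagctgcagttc
KRT83: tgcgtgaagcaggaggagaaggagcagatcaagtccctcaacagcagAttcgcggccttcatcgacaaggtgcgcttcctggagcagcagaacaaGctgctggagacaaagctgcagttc
KRT86: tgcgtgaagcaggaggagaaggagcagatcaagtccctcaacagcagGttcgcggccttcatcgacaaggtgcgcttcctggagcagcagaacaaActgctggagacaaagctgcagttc
The lines of KRT81 and KRT86 are the same over this stretch, so a short read from it could not be told apart between them. KRT6A and KRT6B, with KRT6C, form a closer set still, at 97.5% identity between KRT6A and KRT6B, and 26.2% and 34.9% of their 75-base windows were shared. Their coding bases 301 to 420 differ at the 1 position in capitals.
KRT6A: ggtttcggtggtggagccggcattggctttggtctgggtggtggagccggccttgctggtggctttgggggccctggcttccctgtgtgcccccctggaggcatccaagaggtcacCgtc
KRT6B: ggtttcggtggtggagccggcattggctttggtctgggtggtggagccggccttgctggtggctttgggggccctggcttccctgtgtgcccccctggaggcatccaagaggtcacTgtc
By contrast, no 75-base window of KRT75, KRT4, KRT7, KRT15, KRT19, KRT20 or KRT80 occurred in another transcript in the same orientation. In the opposite orientation, 6.76% of the KRT75 windows occurred in the antisense gene AC055736.1 and 9.05% of the KRT7 windows in KRT7-AS. The strand setting of the counting is not given in the sources used here.

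KRT75 and KRT4 are shown with their promoters because they rose most in DDX4-null cells among keratins that had counts in control cells. The 250 bases before each start were taken from RefSeq on GRCh38.p14, at chr12:52434372-52434621 for KRT75 and chr12:52814117-52814366 for KRT4, both on the minus strand.
KRT75: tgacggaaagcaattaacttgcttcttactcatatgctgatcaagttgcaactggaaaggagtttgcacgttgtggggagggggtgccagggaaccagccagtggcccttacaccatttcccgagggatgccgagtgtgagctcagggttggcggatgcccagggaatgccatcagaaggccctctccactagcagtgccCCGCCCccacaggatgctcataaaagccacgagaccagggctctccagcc
KRT4: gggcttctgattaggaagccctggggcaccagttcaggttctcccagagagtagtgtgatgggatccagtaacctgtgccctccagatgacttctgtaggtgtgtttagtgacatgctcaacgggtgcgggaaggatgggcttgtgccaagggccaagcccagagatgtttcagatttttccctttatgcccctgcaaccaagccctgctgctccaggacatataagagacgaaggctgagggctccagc
The windows were searched on both strands for TATAAA, for GGGCGG and for the AP-1 motif TGANTCA, none of which contains another. The capitals mark the single match found, a GGGCGG on the strand opposite to KRT75. RefSeq promoters were found for 38 of the 55 keratins. TATAAA occurred in 21 of these 38 windows (55.3%) and in 10.7% of all 35116 promoters, GGGCGG in 4 (10.5%) and in 42.6% of all, and the AP-1 motif in 0 and in 6.57% of all. These are matches of letters, which show neither binding nor its absence.

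The libraries held 12204254 to 25443952 counts. DDX4 itself was counted 0 to 5 times in every library, control or null, so its RNA does not check the labels. KRT8, KRT18 and KRT19 were at or above 188 CPM (counts scaled by library size) in every library. Of 8 prostate luminal markers, only KLK2 and KLK3 had 0 counts in control cells, where the list summed to 174 to 181 CPM. Muscle marker RNA summed to 142 to 484 CPM in tumors, against 14.2 to 20.2 CPM in cells. Fibroblast marker RNA summed to 1403 to 1906 CPM in control tumors, to 11014 CPM in DDX4-null tumor 1 and to 1679.5 CPM or more in the other null tumors. In bulk RNA, fewer cells of a type and less RNA per cell cannot be told apart.

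KRT81 was the most abundant keratin in control cells, followed by KRT19, KRT18, KRT8 and KRT7. Levels here are CPM after TMM scaling over the 16 libraries, and per kilobase of transcript (CPM per kb) where genes are compared. In control cells KRT81 stood at 704 CPM per kb, KRT19 at 274, KRT18 at 196, KRT8 at 120 and KRT7 at 69.6, and the ranges of these neighbours did not overlap over the 4 libraries. In DDX4-null cells KRT75 led at 598 CPM per kb (528 to 673), followed by KRT81 at 554 (483 to 630) and KRT19 at 521 (449 to 563), and these 3 ranges overlapped. Control tumors kept the order KRT81 (949), KRT19 (522), KRT18 (193) and KRT8 (128). In DDX4-null tumors KRT19 (568, range 442 to 693) stood above KRT81 (406, range 208 to 569) with overlapping ranges.

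Many keratins were hardly counted. A mean of at least 1 CPM was reached by 25 of the 55 in some group, and the other 30 stayed at or under 0.965 CPM in each group. KRT40 and KRT222 had 0 counts in all libraries. The number of keratins with 0 counts was 29 in control cells, 20 in DDX4-null cells, 6 in control tumors and 18 in DDX4-null tumors.

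**Figure D1:**
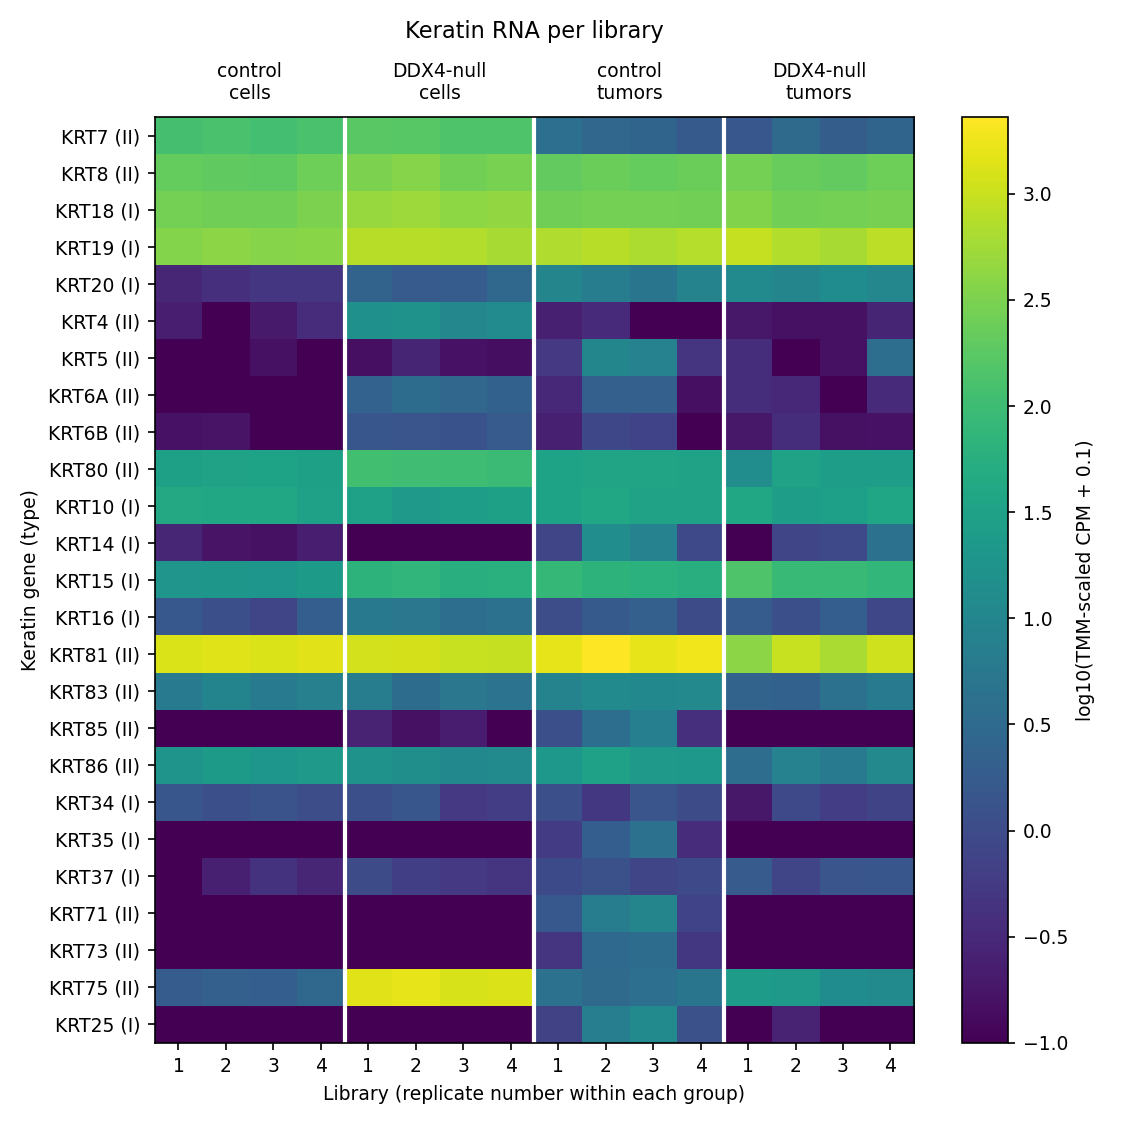
Levels of the 25 keratins with a mean of at least 1 CPM in a group, as log10 of TMM-scaled CPM plus 0.1, with the 16 libraries as columns and the genes as rows by class (simple, stratified, hair and nail, root sheath). KRT75 is bright in the 4 DDX4-null cell libraries, KRT7 is dark in the 8 tumors, and KRT25, KRT71, KRT73, KRT85 and KRT35 stand out in control tumors 2 and 3.

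In monolayer, DDX4-null cells had more RNA of most keratins tested and less of a small group of hair and epidermal ones. A filter on low counts left 18 of the 55 keratins for testing, of which 13 rose and 4 fell with edgeR (adjusted p under 0.05). Among all 13006 genes tested 67.3% passed, 35% upwards and 32.3% downwards, so the share of keratins that changed has to be read against a background in which most genes did. The median log2 change of the tested keratins was 0.90, against 0.02 for all genes. KRT4, KRT6A, KRT6B and KRT20 reached the level of the filter in no control library, so they were tested only because null cells held them. The count of rises and the median include these 4 genes and are given as a description. Of the other 14 tested, 9 rose and 4 fell.

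KRT75, a type II keratin of the companion layer of the hair follicle, had the largest rise of a keratin with counts in both groups. It stood at 1.72, 2.08, 1.93 and 2.72 CPM in the control cell libraries and at 1449, 1563, 1227 and 1324 CPM in the DDX4-null ones. The log2 rise was 9.36 ± 0.16 (SE, edgeR adjusted p = 3.46e-19, n = 4 per group), the 3rd smallest p of all genes tested. No null library came near a control library. KRT75 alone thus made up 31.8% ± 0.993 (SD) of the summed keratin CPM of null cells, against 0.0849% ± 0.0124 in control cells.

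KRT4, KRT6A and KRT6B, which belong to stratified epithelia, were near 0 in control cells and measurable in DDX4-null cells. KRT4, of the non-cornified lining of the mouth and oesophagus, had 2, 0, 2 and 4 counts in control cells and 283, 283, 173 and 270 in null cells, a log2 rise of 6.67. Only null cells brought KRT4 past the filter, so its test is not given. KRT6A had 0 counts in all control cell libraries and 42, 57, 43 and 46 in null ones, at least 53.3-fold higher against a floor of 3 counts over the group. KRT6B went from 2 counts in all to 102, a 43.4-fold rise (95% counting interval 11.7 to 363). Because KRT6A and KRT6B share the stretches shown above, the split of reads between them is uncertain. Both stayed low, at 2.59 ± 0.557 and 1.37 ± 0.218 CPM (SD, n = 4) in null cells.

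KRT16, a type I keratin that pairs with the KRT6 proteins, stood at 1.46, 1.08, 0.718 and 1.88 CPM in control cells and at 5.58, 5.26, 3.70 and 4.13 CPM in null cells, a log2 rise of 1.87 ± 0.24. KRT80, a type II keratin found in many epithelia, was the more abundant gene of the class. Its levels were 29.7, 32.2, 33.8 and 30.3 CPM in control cells against 110, 107, 102 and 93.5 CPM in null cells, a log2 rise of 1.71 ± 0.10. KRT15, a type I keratin of basal cells and hair follicle stem cells, moved from 18.5, 20.5, 19.5 and 23.9 CPM to 66.4, 74.4, 56.5 and 57.9 CPM, a log2 rise of 1.63 ± 0.12. For these 3 genes all 4 null libraries lay above all 4 control libraries.

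The basal pair was near 0 in both groups of cells. KRT5 had 1 count over the control cells and 6 over the null cells, and KRT14 had 7 and 0. Neither gene passed the filter. KRT10, the type I keratin of the suprabasal epidermis, fell from 42.2, 40.9, 40.2 and 30.8 CPM to 30.7, 22.2, 26.4 and 29.9 CPM, a log2 change of -0.49 ± 0.12 (edgeR adjusted p = 0.00164), and its groups did not overlap.

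KRT19, KRT18, KRT8 and KRT7 of simple epithelia rose in DDX4-null cells by less than 2-fold, where 35% of all genes rose. KRT20, the other one tested, passed the filter only through null cells. KRT19, a small type I keratin without the usual tail, stood at 362, 402, 374 and 389 CPM in control cells and at 770, 782, 721 and 624 CPM in null cells, a log2 rise of 0.92 ± 0.10. KRT18 stood at 282, 261, 255 and 314 CPM against 491, 532, 423 and 448 CPM, a log2 rise of 0.77 ± 0.10. Its partner KRT8 stood at 212, 194, 188 and 249 CPM against 318, 368, 269 and 309 CPM, a log2 rise of 0.58 ± 0.11. The groups of these 3 genes did not overlap. Exons of KRT8 and KRT18 overlap on opposite strands by 525 bases in GENCODE v29, and the strand setting of the counting is not given in the sources used here, so reads of that overlap may have been counted for either gene.

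KRT7, a type II keratin of ducts and glands, was 118, 129, 114 and 128 CPM in control cells and 177, 169, 146 and 143 CPM in null cells. The log2 rise was 0.38 ± 0.10 (edgeR adjusted p = 0.00191). KRT20, a type I keratin best known from gut and urothelium, was higher by 2.76 on the log2 scale in null cells, from a low level. Its test is not given, since only null cells brought it past the filter. It stood at 0.199, 0.287, 0.387 and 0.388 CPM in control cells and at 2.36, 1.71, 1.76 and 2.87 CPM in null cells.

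The 3 tested type II hair keratins fell in DDX4-null cells, by small amounts. KRT81, the most abundant keratin of control cells, stood at 1288, 1408, 1277 and 1459 CPM in control cells and at 1145, 1215, 983 and 932 CPM in null cells, a log2 change of -0.35 ± 0.11 (edgeR adjusted p = 0.00735). KRT86 stood at 17.8, 24.1, 19.7 and 22.2 CPM against 16.9, 15.0, 10.9 and 12.1 CPM, a log2 change of -0.61 ± 0.14. KRT83 stood at 5.96, 9.04, 6.19 and 7.83 CPM against 6.71, 3.31, 5.22 and 4.45 CPM, a log2 change of -0.55 ± 0.19 (edgeR adjusted p = 0.0157), and its groups overlapped. In a model of all 16 libraries the calls of KRT81 and KRT83 were lost, and that of KRT83 was also lost without control cells 2 (-0.44) or without null cells 2 (-0.40). KRT86 made up 1.54% of the KRT81 level in control cells and 1.28% in null cells. The part of reads shared with KRT81 in the change of KRT86 was not tested.

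Among type I hair keratins, KRT32 had overlapping groups with means under 1 CPM, at a log2 change of 0.88 ± 0.36 (edgeR adjusted p = 0.0357). DESeq2 did not call it (0.87, adjusted p = 0.0736), nor did the model of all 16 libraries (0.87, adjusted p = 0.0696). The call was also lost without control cells 2 (0.71) or 3 (0.78) and without null cells 1 (0.92) or 4 (0.56). KRT34 stood at 1.39, 1.08, 1.22 and 0.970 CPM in control cells and at 1.07, 1.36, 0.425 and 0.510 CPM in null cells and did not pass. KRT37 stood at 0, 0.144, 0.331 and 0.194 CPM against 0.913, 0.532, 0.425 and 0.371 CPM and was not tested. These genes lie near the counting floor of 0.118 to 0.246 CPM per library that 3 counts allow. Genes of chromosome 12 other than keratins had a median log2 change of -0.12 in null cells and those of chromosome 17 of 0.24, beside the keratin changes on the same chromosomes, such as KRT7 on 12 and KRT19 on 17.

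**Figure D2:**
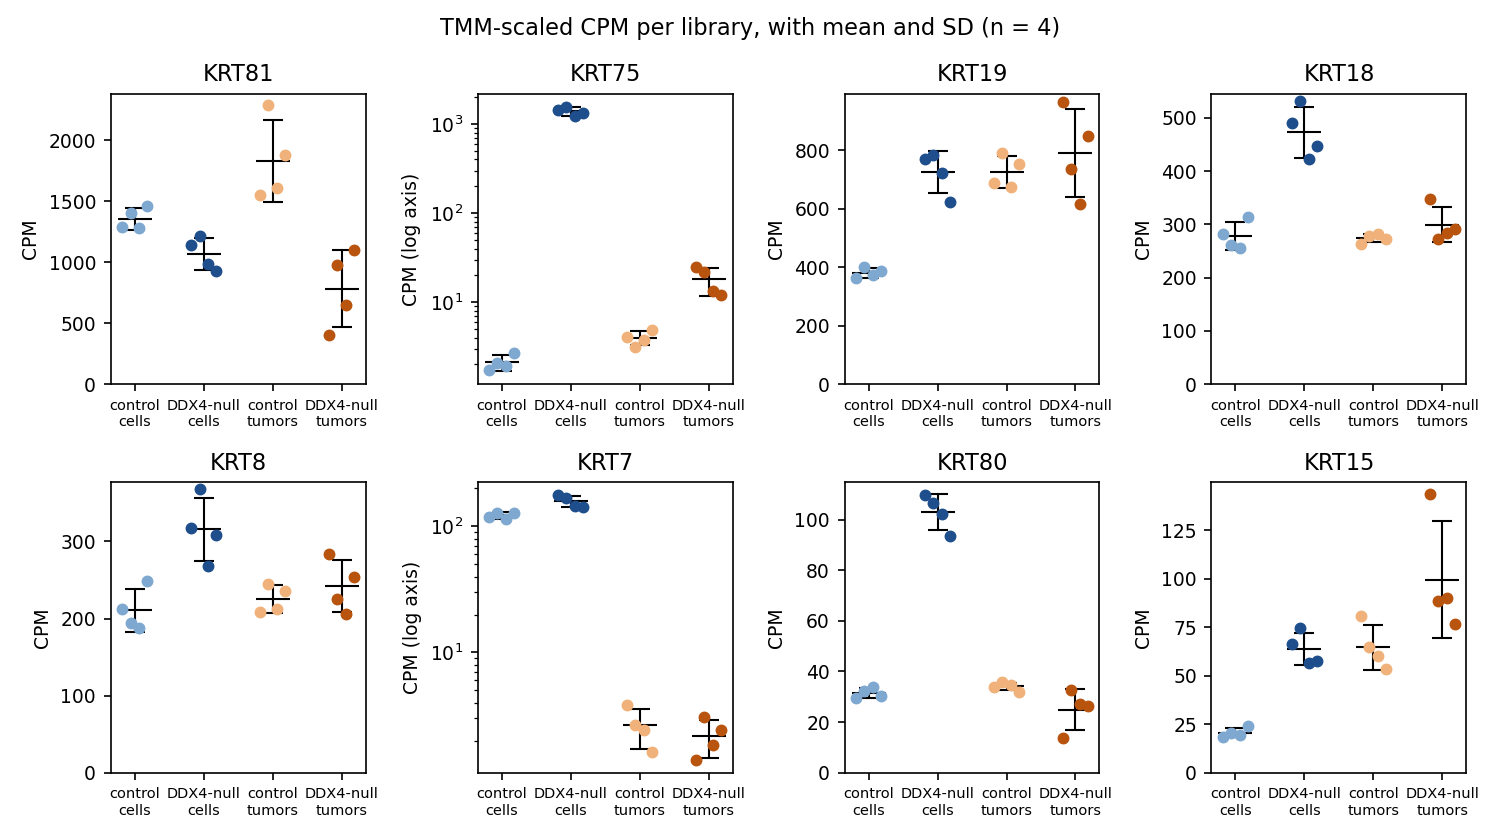
TMM-scaled CPM of 8 keratins in each library (points), with group mean and SD (bars, n = 4), on a linear axis from 0 or, for KRT75 and KRT7, a log axis. KRT75 is above 1200 CPM in each DDX4-null cell library and at or under 25.03 CPM in all others, and KRT7 is at or under 3.85 CPM in all 8 tumors.

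Hair follicle genes other than keratins also changed in the cells. Of 15 hair follicle markers 10 were tested in monolayer, and 9 rose and 1 fell, beside 35% and 32.3% of all genes. Between control tumors and control cells only 5 of the 15 were tested. LEF1, with 1 count over the control cells, passed the filter in monolayer only through null cells, and others may have. The counts of rises are therefore a description. Rises were not limited to this list, since 3 of 4 tested epidermis markers, 3 of 4 tested prostate luminal markers and 3 of 3 tested fibroblast markers rose as well. LEF1, the Wnt-dependent factor of the hair matrix, went from 1 count over the control cells to 182, 220, 194 and 186 counts in null libraries. DLX3, a homeobox factor of hair and tooth, rose by 6.10 ± 0.38 on the log2 scale. MSX2, another homeobox factor of the hair matrix, rose by 1.95 ± 0.14, while S100A3, a calcium-binding protein of the hair cuticle, fell by 1.40 on the log2 scale. Structural hair markers stayed near 0, with 8 to 18 counts of TCHH, the trichohyalin of the inner root sheath, per null library and 0 counts of DSG4 and TCHHL1. The summed hair follicle marker level was 20.1 to 29.04 CPM in control cells and 65.4 to 75.8 CPM in null cells, and its part in the keratin changes was not tested.

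Genes for proteins that hold keratin filaments at the cell border were called about as often as all genes in monolayer, of which 35% rose and 32.3% fell. Of 11 tested desmosome genes 4 rose and 3 fell. DSP, the plakin that links keratin to the desmosome, rose by 1.68 ± 0.10 on the log2 scale, from 100 to 321 CPM. The desmosomal cadherins DSC2 and DSC3 fell by 1.43 and 1.52. Of 6 hemidesmosome genes 2 rose (ITGA6 by 0.72 ± 0.09 and COL17A1 by 1.09 ± 0.21) and 2 fell (among them ITGB4, by 0.51). Of 8 tested other intermediate filament genes 3 rose, led by the nuclear lamins LMNB2 (1.13 ± 0.10) and LMNB1 (1.10 ± 0.12), with VIM, the filament of mesenchymal cells, at 0.30 ± 0.09, and 1 fell.

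The transcription factors and splicing factors known to act on epithelial keratin genes were also called at about the rate of all genes (67.3%) in null cells, with 5 of 10 tested down and 2 up. ESRP1, an epithelial splicing factor, rose by 6.25 ± 0.15 on the log2 scale, from 1.29 to 97.9 CPM. OVOL2, a repressor of mesenchymal genes, rose by 2.92 ± 0.32, and EHF, an ETS factor of epithelia, fell by 2.85.

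In tumors few genes separated DDX4-null from control, and keratins were among them. Of the 55 keratins 19 were tested, with 1 higher and 5 lower in null tumors by the same test. Among all 12942 genes tested 2.09% passed, 0.981% upwards and 1.1% downwards. The median log2 change was -0.24 for the tested keratins and 0.00 for all genes. KRT25 and KRT71 entered the test only through control tumors, since no null tumor reached the level of the filter, so the count of falls and the median are given as a description. Of the other 17 tested, 1 rose and 3 fell. Those 3 were the near copies KRT81, KRT83 and KRT86, and the part of shared reads in their falls was not tested.

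KRT75 was again the keratin that rose. Control tumors held 4.06, 3.18, 3.80 and 4.92 CPM and DDX4-null tumors 25.03, 21.95, 13.2 and 11.96 CPM, with no overlap. The log2 rise was 2.17 ± 0.25 (edgeR adjusted p = 0.00371), the 6th smallest p of the tumor comparison. The call was kept when any single library was left out, with adjusted p values up to 0.0288, and lost without control tumors 2 and 3 together (log2 change 2.00, adjusted p = 0.215), a fit on 6 libraries in which 2 genes in all passed.

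The 3 type II hair keratins were lower in DDX4-null tumors, with groups that did not overlap. KRT81 stood at 1551, 2289.7, 1608 and 1876 CPM in control tumors and at 402, 979, 652 and 1097 CPM in null tumors, a log2 change of -1.23 ± 0.27 (edgeR adjusted p = 0.0420). KRT86 stood at 20.8, 30.9, 21.9 and 20.8 CPM against 3.54, 8.54, 6.07 and 10.96 CPM, a log2 change of -1.68 ± 0.27 (adjusted p = 0.0155). KRT83 stood at 8.76, 11.8, 10.6 and 11.4 CPM against 2.30, 2.16, 4.24 and 6.48 CPM, a log2 change of -1.48 ± 0.30 (adjusted p = 0.0341). DDX4-null tumor 1, the one with the most fibroblast marker RNA, was the lowest for KRT81 and KRT86, and the part of that RNA in the fall was not tested. Without that tumor all 3 calls were kept.

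These calls were fragile to single libraries. The calls of KRT81 and KRT83 were lost in 6 of 8 fits that left out 1 library, namely each control tumor (KRT81 -1.30, -1.10, -1.28 and -1.22, KRT83 -1.56, -1.42, -1.48 and -1.45) and null tumors 2 (-1.34 and -1.26) and 3 (-1.15 and -1.53). KRT86 lost its call without control tumor 2 (-1.52) or control tumor 3 (-1.72). The log2 changes themselves thus moved little.

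Keratins of simple epithelia were not called in tumors. KRT19 stood at 687, 789, 673 and 751 CPM in control tumors and at 963, 734, 614 and 847 CPM in null tumors (log2 change 0.12 ± 0.13). KRT18 stood at 264, 279, 281 and 273 CPM against 348, 274, 285 and 291 CPM (0.12 ± 0.09), and KRT8 at 208, 244, 212 and 236 CPM against 284, 226, 206 and 254 CPM (0.10 ± 0.11). The groups of all 3 overlapped. KRT7 was low in both, at 3.85, 2.65, 2.45 and 1.62 CPM in control tumors and 1.41, 3.08, 1.83 and 2.43 CPM in null tumors (-0.24 ± 0.31). KRT20 stood at 9.53, 7.06, 4.93 and 8.72 CPM against 11.9, 9.35, 13.1 and 10.3 CPM (0.57 ± 0.20, edgeR adjusted p = 0.146), with 3 of 4 null tumors above every control tumor.

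Of the stratified keratins that rose in cells, none was called in tumors. KRT15 came nearest, at 80.7, 64.7, 60.3 and 53.4 CPM in control tumors and 144, 88.6, 89.9 and 76.5 CPM in null tumors (log2 change 0.62 ± 0.18, edgeR adjusted p = 0.105). It was called by DESeq2 and in the model of all 16 libraries. KRT80 stood at 33.9, 35.7, 34.8 and 32.1 CPM against 13.8, 32.8, 27.02 and 26.3 CPM (-0.44 ± 0.20, adjusted p = 0.225), with 3 of 4 null tumors below every control tumor. KRT16 stood at 0.981, 1.65, 2.08 and 0.912 CPM against 1.77, 1.08, 1.89 and 0.747 CPM, and KRT10 at 33.9, 39.9, 32.8 and 32.5 CPM against 40.1, 27.3, 29.2 and 37.6 CPM, both with overlapping groups. KRT4 was near 0 in tumors, with 6 counts over the control tumors and 6 over the null tumors.

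**Figure D3:**
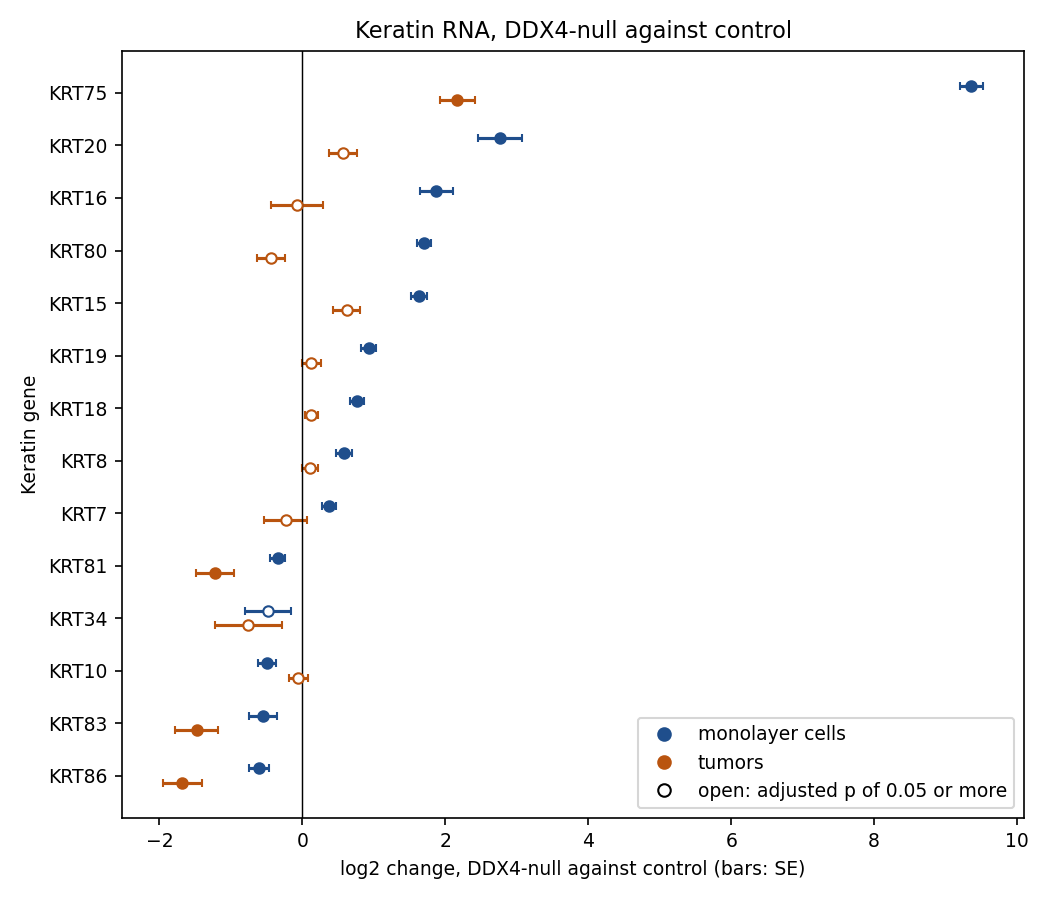
Log2 change of DDX4-null against control, with SE, of the 14 keratins with a mean of at least 1 CPM in a group that were tested in both cells and tumors. Filled points have an edgeR adjusted p under 0.05: KRT75 lies at 9.36 in cells and 2.17 in tumors, and KRT81, KRT83 and KRT86 lie left of 0 in both.

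The other keratins counted as lower in null tumors were those of the inner root sheath, the layer that moulds the growing hair. KRT25, a type I keratin of that sheath, had 9, 122, 330 and 22 counts in control tumors 1 to 4 and 0, 3, 0 and 0 in null tumors, a 130-fold fall (95% counting interval 44.2 to 633). KRT71, a type II partner, had 21, 115, 258 and 13 counts against 0 in all null tumors, at least 110-fold lower. Control tumors 2 and 3 held most of these counts. Both are among the 5 genes counted as lower, and since only control tumors brought them past the filter, the size of their test is not given. Their calls were lost in 5 and 6 of the 8 fits that left out 1 library, control tumors 2 and 3 and null tumors 2, 3 and 4 for both and control tumor 1 for KRT71.

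More keratins of hair showed the same distribution but did not pass the filter. KRT73 had 5, 51, 93 and 8 counts in control tumors, KRT85 had 15, 63, 204 and 6, and KRT35 had 7, 33, 111 and 5, all with 0 counts in null tumors. KRT28 had 4, 24, 58 and 1 counts, again with 0 in null tumors. The root sheath keratins other than KRT75 summed to 3.22, 21.1, 30.2 and 2.43 CPM in control tumors 1 to 4 and to at most 0.162 CPM in any null tumor. In cells they summed to 0 counts in control libraries and 0 or 1 in null ones.

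Keratins of the basal epidermis stood high in the same control tumors. KRT5 had 6, 166, 231 and 7 counts in control tumors and 3, 0, 1 and 58 in null tumors, and it did not pass the filter. KRT14 had 10, 235, 233 and 16 counts against 0, 13, 14 and 66 (log2 change -2.06 ± 0.98, edgeR adjusted p = 0.252). KRT6A had 3, 35, 57 and 1 counts against 3, 4, 0 and 4, and KRT6B stood at 0.140, 0.765, 0.657 and 0 CPM against 0.0884, 0.270, 0.0573 and 0.0623 CPM. Among null tumors, number 4 alone held KRT5 and KRT14 at several CPM, and it had 0 counts of KRT25, KRT71, KRT73, KRT85 and KRT35. Epidermis markers outside the keratins summed to 61.8, 66.5, 56.0 and 53.1 CPM in control tumors and to 52.9, 63.7, 53.1 and 67.3 CPM in null tumors. Of 3 tested epidermis markers 0 passed with edgeR, 0 had an unadjusted p under 0.05 and DESeq2 called 0.

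Hair follicle markers outside the keratins were low but followed these libraries in part. TCHH had 7, 20, 47 and 5 counts in control tumors and 1, 14, 2 and 5 in null tumors. TGM3, a transglutaminase of the inner root sheath, had 0, 9, 8 and 1 counts and FOXN1, a factor needed for hair, 0, 1, 10 and 0, with 0 of both in null tumors. Over all 15 markers the sums overlapped, at 27.5 to 38.5 CPM in control tumors and 25.1 to 33.1 CPM in null tumors, and 1 and 4 of the 15 were at 0, TCHHL1 in both. None of 5 tested markers passed with edgeR, 0 had an unadjusted p under 0.05 and DESeq2 called 0. Whether reads of host skin contributed to the keratin counts was not tested, and the removal of host reads is not given in the sources used here.

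**Figure D4:**
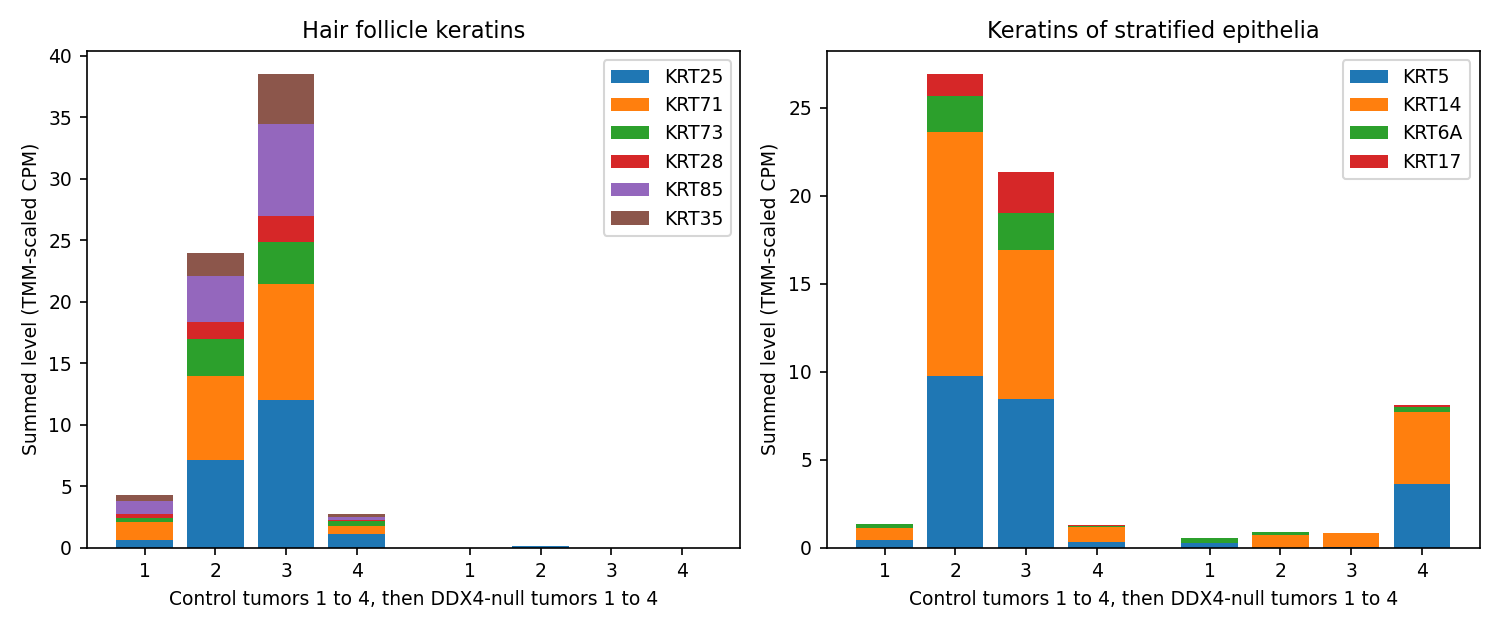
Summed TMM-scaled CPM of 6 hair follicle keratins (left) and 4 keratins of stratified epithelia (right) in the 8 tumors, each bar a library and each color a gene. Control tumors 2 and 3 carry most of both sums, and among null tumors only number 4 shows KRT5 and KRT14 at several CPM.

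The remaining hair keratins with a mean of at least 1 CPM were KRT34 and KRT37. KRT34 stood at 1.05, 0.412, 1.31 and 0.912 CPM in control tumors and at 0.0884, 0.811, 0.515 and 0.685 CPM in null tumors. KRT37 stood at 0.841, 1.12, 0.730 and 0.811 CPM against 1.68, 0.703, 1.32 and 1.37 CPM. Neither gene was called, and both groups overlapped.

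Among the partners of keratins, 2 genes were called in tumors, where edgeR called 2.09% of all 12942 genes tested. DESeq2 called 481 up and 399 down among the same genes. The share of all genes at an unadjusted p under 0.05 is not given. None of 11 tested desmosome genes passed with edgeR, 2 had an unadjusted p under 0.05 and DESeq2 called 1. Of 6 hemidesmosome genes COL17A1, a transmembrane collagen, rose by 1.25 ± 0.27 (edgeR adjusted p = 0.0399), as it did in cells, and the linker PLEC fell by 0.59 (adjusted p = 0.0196). Of these 6 genes, 4 had an unadjusted p under 0.05 and DESeq2 called 3. None of 9 other intermediate filament genes passed, with 5 at an unadjusted p under 0.05 and 1 called by DESeq2. None of 8 transcription and splicing factors passed, with 6 at an unadjusted p under 0.05 and 5 called by DESeq2.

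Between monolayer and tumor, KRT7 fell with or without DDX4, and KRT15, KRT20 and KRT37 rose. Control tumors were compared with control cells and null tumors with null cells, and the tumors of each comparison also entered the comparisons above, so these results are not independent of them. In the control comparison 11 of 19 tested keratins rose and 1 fell, against a background in which 64.9% of 12858 genes passed, 33.9% upwards and 31% downwards. Of those 11, KRT14, KRT20, KRT25, KRT37 and KRT71 reached the level of the filter in no control cell library. In the DDX4-null comparison 3 of 19 rose and 10 fell, against 69.8% of 13277 genes, 34.6% upwards and 35.3% downwards. Of those 10, KRT4, KRT6A and KRT6B reached that level in no null tumor, so both counts are a description.

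KRT7 fell in both, from 122 ± 7.19 CPM in control cells to 2.64 ± 0.922 CPM in control tumors and from 159 ± 16.8 CPM in null cells to 2.19 ± 0.726 CPM in null tumors (SD, n = 4). The log2 changes were -5.56 ± 0.16 and -6.12 ± 0.18 (edgeR adjusted p = 3.4e-14 and 3.55e-11), the 18th and the 10th smallest p of their comparisons. KRT8, which shares the pairing partner KRT18, did not pass in control tumors (log2 change 0.10 ± 0.10) and fell by 0.37 in null tumors. That fall lost its call without null cells 2 (-0.28) or null tumor 3 (-0.30).

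KRT20 and KRT15 rose in both comparisons. KRT20 was higher by 4.52 on the log2 scale in control tumors than in control cells, and only the tumors brought it past the filter. Between null cells and null tumors it rose by 2.35 ± 0.20. KRT15 rose by 1.65 ± 0.13 and 0.65 ± 0.17. KRT37, a type I hair keratin, was higher by 2.26 in control tumors, which alone brought it past the filter. Between null cells and null tumors it rose by 1.16 ± 0.37, and its levels were about 1 CPM.

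KRT19 rose in the control comparison, by 0.93 ± 0.09, from 382 ± 17.1 to 725 ± 54.4 CPM. It did not pass between null cells and null tumors, at 724 ± 72.1 and 789.6 ± 149.7 CPM (log2 change 0.14 ± 0.14). KRT81 rose by 0.44 ± 0.12 between control cells and control tumors and KRT83 by 0.57 ± 0.15, and both calls were lost in the model of all 16 libraries. The other rises in control tumors were KRT75 (0.92 ± 0.20), KRT32 (0.91 ± 0.35), KRT14 (5.68), KRT25 (at least 129-fold higher) and KRT71 (at least 108-fold higher). No SE is given for KRT14, KRT25 and KRT71, which only control tumors brought past the filter. The call of KRT32 was lost with DESeq2 (0.89), in the model of all 16 libraries (0.89) and without control cells 2 (0.74), 3 (0.80) or 4 (0.94) or control tumor 3 (0.64).

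Several keratins of DDX4-null cells were lower in DDX4-null tumors. KRT75 fell by 6.26 on the log2 scale (SE 0.24). KRT4 was lower by 7.05, KRT6A by 3.81 and KRT6B by 3.36, without SE, since only null cells brought these genes past the filter. Smaller falls were those of KRT80 by 2.02, KRT16 by 1.76, KRT86 by 0.88 and KRT18 by 0.65. For KRT75, KRT80, KRT16 and KRT18 all 4 null tumors lay below all 4 null cell libraries, in a comparison where 69.8% of all genes passed.

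The difference between the genotype effects was tested in a model of all 16 libraries. Of 22 keratins tested, 15 had a lower effect in tumors than in cells and 0 a higher one, against a background of 52.8% of 13603 genes passed, 26% upwards and 26.8% downwards. KRT4, KRT25 and KRT71 were tested through 1 group alone. KRT6A and KRT6B reached the level of the filter in all 4 null cell libraries and otherwise only in control tumors 2 and 3. The count is therefore a description. The contrast was -7.20 ± 0.31 for KRT75, -2.15 ± 0.22 for KRT80, -2.19 ± 0.39 for KRT20, -1.96 ± 0.46 for KRT16 and -1.01 ± 0.23 for KRT15. For KRT19 it was -0.80 ± 0.17, for KRT18 -0.64 ± 0.14 and for KRT8 -0.48 ± 0.16. The type II hair keratins, which fell in both settings, fell more in tumors, with contrasts of -1.06 ± 0.31 for KRT86, -0.88 ± 0.29 for KRT81 and -0.92 ± 0.38 for KRT83. The call of KRT83 was lost in 11 of 16 fits that left out 1 library, with adjusted p values up to 0.118, and that of KRT8 without null cells 2 (-0.37). Without control tumors 2 and 3 together, an alternative chosen after seeing the data, 10 keratins were called, all as lower. The calls of KRT81 (-0.78), KRT83 (-0.84), KRT8 (-0.45) and KRT6B (-4.13) were then lost. KRT7 (-0.57 ± 0.27, edgeR adjusted p = 0.0774) did not pass, but was called by DESeq2 (-0.58, adjusted p = 0.0336), with scaling by library totals (-0.70) and without control tumor 4 (-0.74) or null tumor 2 (-0.79). The contrast of KRT10 had the other direction (0.44, edgeR adjusted p = 0.0581) and did not pass. It was called as higher in 5 of 16 fits that left out 1 library.

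Summed over all 55 genes, keratin RNA was highest in DDX4-null cells. The sum was 2475 ± 148 CPM in control cells, 4372 ± 447 CPM in null cells, 3277 ± 424 CPM in control tumors and 2322 ± 308 CPM in null tumors (SD, n = 4). As a share of all counts it was 0.233%, 0.432%, 0.347% and 0.235% of the library. These sums lean on KRT81 and KRT75, since KRT81 held 54.9% of the keratin CPM in control cells and 55.6% in control tumors but 24.4% in null cells and 33.2% in null tumors.

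The ratio of type I to type II CPM moved with the same genes. It was 0.413 ± 0.0114 in control cells and 0.423 ± 0.0171 in null cells, where type I rose along with KRT75. In control tumors it was 0.532 ± 0.0587 and in null tumors 1.25 ± 0.555, with 2.06 in null tumor 1 and 0.893 to 1.14 in the other 3. All 4 null tumors lay above all 4 control tumors (0.457 to 0.590). No p is given for these sums.

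**Figure D5:**
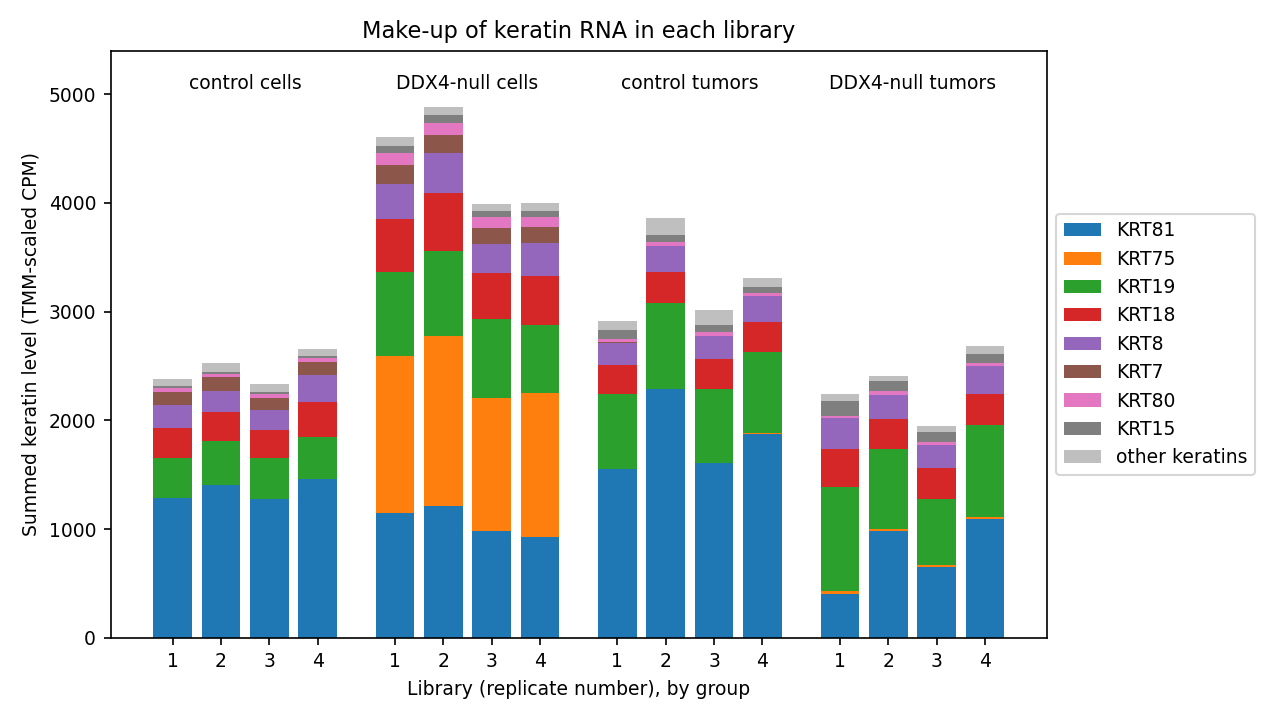
Summed keratin level of each of the 16 libraries in TMM-scaled CPM, stacked by gene. The KRT75 segment appears in the 4 DDX4-null cell libraries, where the bars reach 3992 to 4882 CPM, and the KRT81 segment is shortest in DDX4-null tumor 1.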

How the data were processed

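The authors deposited a table of raw read counts, with 20356 Ensembl gene IDs and 16 libraries. Per the labels' protocols, RNA was treated with DNase and a stranded mRNA kit was used. Trimmomatic 0.39, STAR 2.7.10a, featureCounts 2.0.3 and the build GRCh37 are named in the submitters' processing notes. Not given in the sources used here are the annotation, the strand setting, how reads that map to several genes were counted and whether host reads were removed. Symbols came from a names table for 18979 IDs and from GENCODE v29 for 532, and 845 had none.

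In R 4.3.3, edgeR 4.0.16 filtered the counts (filterByExpr), scaled them (TMM) and tested them by quasi-likelihood, and p-values were adjusted after Benjamini-Hochberg over all genes tested, with a threshold of 0.05. Each comparison used its 8 libraries, and the difference of the genotype effects used all 16. Most log2 changes carry a standard error (SE). Statements that groups did not overlap describe single genes, since the share of all genes without overlap was not determined. Levels are TMM-scaled CPM, per kilobase by the shortest APPRIS-principal GENCODE v29 transcript. A count of 0 allows up to 3 counts, and floors and intervals cover counting error only. Library depth was 12204254 to 25443952 counts. Replicates differed by more than sampling noise in every pair (chi-square per gene of 3.75 or more).

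Members and gene lists were chosen with earlier results of these data known. Values per library are given for keratins with a mean of at least 1 CPM in a group, others are named where called, and from each partner list at most 3 genes that passed are given, by smallest p. Genes of the hair follicle and tumor marker lists named beside results were chosen after their values were seen. Alternatives were DESeq2 1.42.0, scaling by library totals, 2 other filters, a test against a 2-fold change, 1 model for all 16 libraries, a block for the replicate number and leaving out each library. The scripts were also tested on simulated data, where 2.82% (tumors) to 9.9% (control tumors against control cells) of calls were false. A simulated log2 change of 0.5 was recovered for 34.3% of changed genes in tumors and 10.4% for the difference of effects. For a log2 change of 1 these shares were 81.2% and 74.2%.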

Additional observations from a re-analysis of the deposited data

Results flagged for a closer look

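KRT86 in control tumor 2 stood apart from the other 3 control tumors. At 30.9 CPM against 20.8 to 21.9 CPM, its gap to the next library was 0.892 of the range of the group, above Dixon's 95% critical value for 4 samples. It was 1 flag among 65 groups checked, while chance flags about 1 in 20.

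The effect of DDX4-null was called as different between tumors and cells for 14 keratins with a mean of at least 1 CPM, by the interaction test of edgeR. That test used all 16 libraries and called 52.8% of 13603 genes, 26% upwards and 26.8% downwards. KRT4, KRT6A and KRT6B reached the level of the filter in no control cell library and no null tumor, so the count is a description. The log2 contrasts were -7.20 for KRT75, -6.40 for KRT4, -6.79 for KRT6B and -11.16 for KRT6A. KRT6A had 0 counts in control cells, so the size of its contrast depends on the prior count of the fit. KRT4 and KRT6B had 8 and 2 counts over the control cells. For KRT20 the contrast was -2.19, for KRT80 -2.15, for KRT16 -1.96 and for KRT15 -1.01. The contrast of KRT86 was -1.06, of KRT83 -0.92 and of KRT81 -0.88, and those of the simple keratins were -0.80 for KRT19, -0.64 for KRT18 and -0.48 for KRT8.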

How the results depend on the processing

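No keratin call reversed its direction under any alternative run. The number of keratins called was within 1.5 times the main one except as follows. Against a 2-fold change it was 8 of the main 17 in monolayer, 0 of 6 in tumors, 7 of 12 for control tumors against control cells, 8 of 13 for null tumors against null cells and 6 of 15 for the difference of effects. Without a filter on low counts it was 10 in tumors and 34 for control tumors against control cells, where more genes were tested, and with at least 1 CPM in 4 libraries the latter gave 7. Leaving out 1 library gave 1 to 6 calls in tumors, with 1 without control tumor 2 or 3, 2 without null tumor 2 or 3 and 3 without control tumor 1, and 15 to 17, 11 to 13, 13 to 15 and 13 to 17 in the other 4 comparisons. Without control tumors 2 and 3 together, an alternative chosen after seeing the data, 0 keratins were called in tumors, with 2 control libraries left.

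The replicate numbers did not pair the libraries: deviations of same-numbered libraries correlated at -0.23 to 0.39 in monolayer and -0.06 to 0.20 in tumors. With the replicate block 17, 7, 12, 15 and 15 keratins were called, with KRT15 added in tumors (log2 change 0.59, adjusted p = 0.0123). Over all genes the block called 258 up and 167 down in tumors against 127 and 143 without it, and DESeq2 481 and 399. Scaling by library totals moved the median log2 change of all genes from 0.02 to 0.19 between control tumors and control cells and from -0.02 to -0.16 for the difference of effects. It gave 5569 up and 2870 down against 4354 and 3986 in the first, 2721 and 4404 against 3532 and 3649 in the second and 97 and 168 in tumors, and KRT8, KRT80 and KRT86 were then called as higher in control tumors than in control cells. Depth limits the keratins under 1 CPM.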
